A study of Drosophila melanogaster with 4 samples.

Results

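The dpr, DIP, beat and side genes encode 4 families of cell surface and secreted proteins of fly neurons. Their members were taken by symbol from the fly annotation, as dpr with a number, DIP with a Greek letter, beat with a suffix, and side with or without a suffix. This gave 54 genes (21 dpr, 11 DIP, 14 beat and 8 side) among the 13946 genes annotated as protein-coding on the arms. Each was looked up in the authors' deposited table of genes with peaks of Prospero, a homeodomain transcription factor. When a neural stem cell divides, Prospero passes into the smaller daughter and promotes its exit from division and its differentiation.

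The binding data came from targeted DamID on dissected brains of 3rd instar Drosophila melanogaster larvae. In this assay the bacterial methylase Dam, fused to a chromatin protein, marks nearby GATC sites in chosen cells. The study had 4 samples with 3 stated biological replicates each: Dam-Pros-FL (full-length Prospero), Dam-Pros-ΔN7, Dam-HP1a (the heterochromatin component HP1a), and unfused Dam, which measures the background. All 4 were driven by GMR71C09-GAL4 with Gal80ts, so any effect of the driver is shared with the Dam control, and the labels do not say more about which cells the driver covers than the series title, which names central brain neural precursors and neurons.

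The analysed table holds gene names without peak heights, positions or values per replicate, and neither the labels nor the table state which Prospero form it came from. A gene is therefore either listed or unlisted, sequencing depth is unknown, and no p-value is given. Binding in few cells and weak binding in many cells cannot be told apart, and binding to a gene is not a measure of its expression. Unlisted means only that a gene is not among the entries analysed here, which may not be all of them. Of the marker genes looked up, the neuroblast genes dpn, ase, mira and wor were all listed (4 of 4). The neuronal marker elav was listed and nSyb and brp were not (1 of 3). Of the glial genes gcm was listed and repo was not (1 of 2). Over all protein-coding genes 7.76% were listed. By decile of gene length, the share was 5.02% and 5.30% in deciles 6 and 7, which hold the neuroblast and glial genes. It was 12.5% in decile 9 (elav and nSyb) and 26.3% in decile 10, the longest (brp). The lists are short and were chosen with earlier results of these data known, so nothing is read from their counts.

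Dpr proteins carry immunoglobulin domains on the neuronal surface and bind their partners, the Dpr-interacting proteins (DIPs), in specific pairs. Such pairs help neurons find layers and partners in the optic lobe, the mushroom body and the neuromuscular system. Beat-Ia, named for the beaten path phenotype, lets motor axons leave their bundle at choice points. Side, named for sidestep, is a transmembrane protein on the tissue along the path of motor axons and is bound by Beat-Ia. Receptor and partner are thus drawn from the dpr and DIP families on one hand and the beat and side families on the other.

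Prospero peaks were listed for 5 of the 54 family genes, dpr8, dpr12, side, side-IV and side-V. This is 9.26% of the members (exact 95% interval 3.08 to 20.3). It was near the 7.76% of all protein-coding genes and the 8.45% of all annotated genes, which take no account of length. Weighted to the members' length deciles, the background was 22.7%, and the members' share lay below it. The 5 genes came from the dpr and side families, while none of the 25 DIP and beat genes was listed. A count of 0 of 25 allows a share of up to 12.0%, for counting error only, and that limit lies above the 7.76% of all protein-coding genes. It lies below the 24.9% of genes listed in the length deciles of these 25 genes, weighted by members. The DIP and beat families were grouped here because neither had a listed gene, so nothing is read from this joint limit. The limit of each family alone is given below. Each of the 5 had a single gene entry and no transcript entry.

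**Figure D1:**
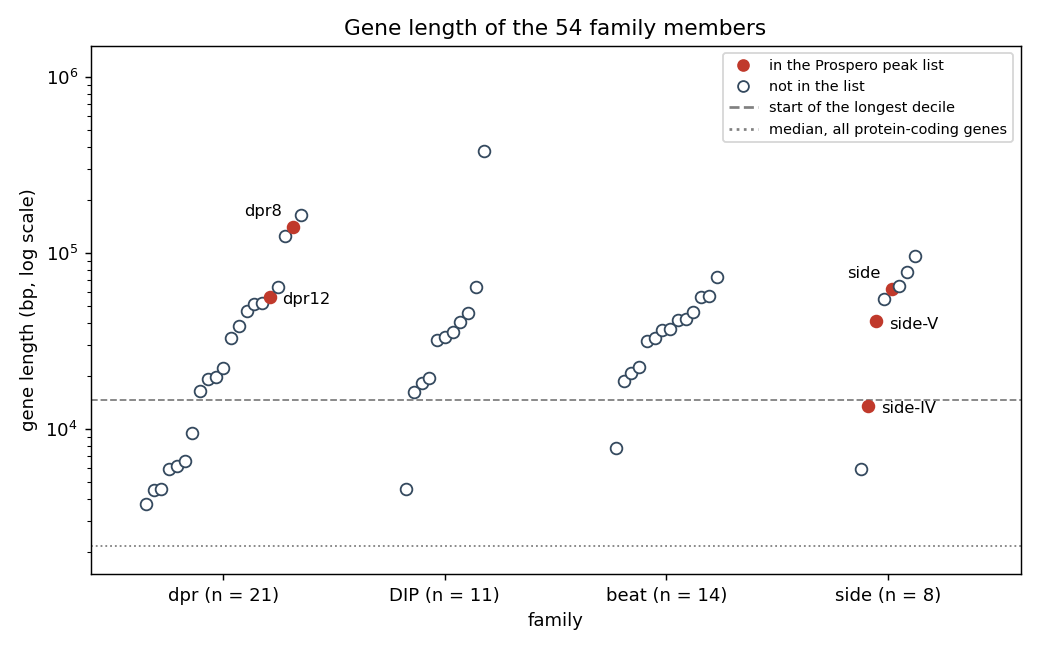
Gene length in bp on a log axis for each of the 54 members, by family, with filled points for genes in the Prospero peak list and open points for unlisted genes. The dashed line is the start of the longest decile of protein-coding genes (14733 bp) and the dotted line their median (2161 bp). Listed members are found in the dpr and side columns and lie among unlisted members of similar length, except side-IV and side-V. No unlisted relative has the size of side-IV, and the closest to side-V (40962 bp) is side-VIII at 54614 bp.

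In the side family, 3 of 8 genes were listed (37.5%, exact 95% interval 8.52 to 75.5, against a background of 7.76%). Weighted to the family's length deciles, that background was 22.1%. The founding gene side (FBgn0016061), whose protein guides motor axons towards muscle, spans 62395 bp on arm 3R. The gene side-IV (FBgn0038156) spans 13595 bp on the same arm, and its protein binds Beat-II proteins. The third, side-V (FBgn0085400), spans 40962 bp on arm 2R. The authors' table gives side-IV and side-V under their older names CG14372 and CG34371, and the current symbols stand in its symbol column.

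The 5 unlisted side genes were side-II, side-III, side-VI, side-VII and side-VIII. They ranged from 5968 bp (side-VII) to 96691 bp (side-III). Length did not order the family, since the median was 40962 bp for the 3 listed genes and 64812 bp for the 5 unlisted ones. The 3 longest genes of the family, side-III, side-VI and side-II, were all unlisted. The unlisted gene closest in length to side was side-II at 64812 bp, followed by side-VIII at 54614 bp. For side-IV the closest were side-VII at 5968 bp and side-VIII, so no unlisted relative had a similar size. For side-V, at 40962 bp, they were side-VIII and side-II, both longer.

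In the dpr family, 2 of 21 genes were listed (9.52%, exact 95% interval 1.17 to 30.4). The background was 7.76% of all protein-coding genes and 20.2% when weighted to the family's length deciles. The gene dpr8 (FBgn0052600) spans 140126 bp on the X chromosome and is the 2nd longest of the family. The gene dpr12 (FBgn0085414) spans 56120 bp on arm 2R and is the 5th longest. Its protein binds DIP-delta and acts in wiring of the mushroom body, the memory centre of the fly brain.

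The 19 unlisted dpr genes ranged from dpr19 at 3738 bp to dpr6 at 164710 bp, with a median of 19763 bp. The genes closest in length to dpr12 were dpr1 at 51960 bp and dpr3 at 51089 bp, and both were unlisted. The gene dpr1 is the founding member, named for a defect in the proboscis extension response to salt. Next to dpr8 in length stood dpr6 and dpr21 (124513 bp), which were also unlisted. The others without an entry were dpr2, dpr4, dpr5, dpr7, dpr9, dpr10, dpr11, dpr13, dpr14, dpr15, dpr16, dpr17, dpr18 and dpr20.

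No DIP gene was listed (0 of 11, which allows a share of up to 27.3%). That limit lies above both 7.76% of all protein-coding genes and the 24.5% weighted to the family's length deciles. These genes encode the surface partners of the Dprs and ranged from DIP-iota at 4567 bp to DIP-lambda at 379081 bp. DIP-alpha, which acts in motor and visual neurons, spans 64405 bp, and DIP-gamma, which acts in colour-processing cells of the visual system, spans 45369 bp. DIP-delta spans 18291 bp. The remaining members were DIP-beta, DIP-epsilon, DIP-zeta, DIP-eta, DIP-theta and DIP-kappa.

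No beat gene was listed either (0 of 14, which allows a share of up to 21.4%). Here the limit lies above 7.76% of all protein-coding genes and below the 25.3% weighted to the family's length deciles. The beat genes ranged from beat-Va at 7860 bp to beat-IIIc at 73098 bp, with a median of 36933 bp. The founding gene beat-Ia spans 31720 bp. The others were beat-Ib, beat-Ic, beat-IIa, beat-IIb, beat-IIIa, beat-IIIb, beat-IV, beat-Vb, beat-Vc, beat-VI and beat-VII.

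Gene length matters for reading these counts, because long genes were listed more often over the whole annotation. Of the 54 members, 43 fell in the longest decile of protein-coding genes, and 4 of these 43 were listed (9.30%). In that decile as a whole 26.3% of genes were listed. In the 9th decile 1 of 4 members was listed, side-IV, beside 12.5% of all genes there. The 7 members in shorter deciles (dpr5, dpr7, dpr14, dpr19, dpr20, DIP-iota and side-VII) were all unlisted, beside 4.85% of genes in the 8 shorter deciles.

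Weighting the background to the members' own length deciles gave a share of 22.7%, which would correspond to 12.3 of 54 genes against the 5 observed. The same weighting gave 4.25 dpr genes against 2 listed, 2.69 DIP genes against none, and 3.54 beat genes against none. For the side family it gave 1.77 genes against 3 listed. With 50 length strata in place of the 10 deciles, the values were 4.62 dpr, 2.71 DIP, 3.55 beat and 2.44 side genes. Relative to genes of their length, the dpr, DIP and beat counts thus lay below the background. The side count lay above it, but by less with the finer strata. These are descriptions of small counts, and no difference between the families was tested.

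**Figure D2:**
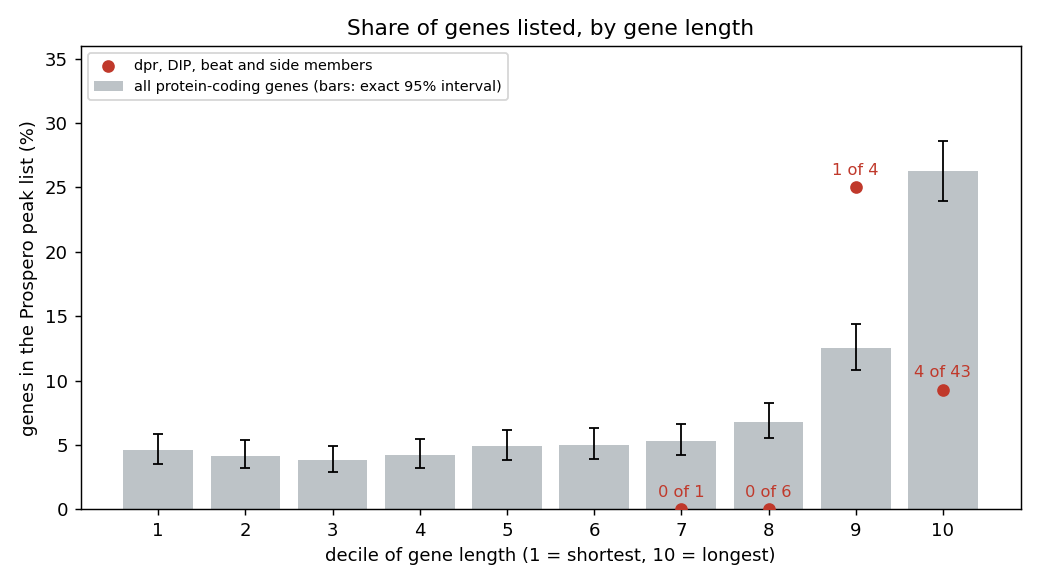
Percent of genes in the Prospero peak list by decile of gene length, with grey bars for all protein-coding genes (error bars are exact 95% intervals) and red points for the dpr, DIP, beat and side members. In the longest decile 4 of 43 members were listed, beside 26.3% of all genes, and the members' point lies below the error bar. That bar covers the share of all genes only, and the members' points are drawn without an interval.

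The listed members differed in their surroundings. Neighbours were counted as annotated genes of any kind that overlap a gene or lie within 10 kb of it in the Release 6 plus ISO1 MT assembly. Around side-IV, 3 of 5 neighbours were listed. These were asRNA:CR17025 (FBgn0040554), an antisense RNA that overlaps the gene, the microRNA gene mir-252 (FBgn0262323) at a distance of 34 bp, and lncRNA:CR45914 (FBgn0267574) at 2310 bp. Around side, 3 of 6 neighbours were listed, namely lncRNA:CR45991 (FBgn0267653) inside the gene, CG44290 at 1388 bp and CG43447 at 2829 bp. Over all listed protein-coding genes 28.3% of neighbours were listed, and 18.1% for those of the longest decile.

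The listed neighbour of dpr12 was the odorant receptor gene Or42b (FBgn0033043) at 6199 bp, which was 1 of 2 genes within the window. For dpr8 none of 4 neighbours was listed, and the nearest other listed gene, Prp16, lay 97493 bp away. For side-V none of 5 neighbours was listed, and the nearest other listed gene, CG9849, lay 223986 bp away. The entries for dpr8 and side-V thus stood alone in their regions, while side-IV and side each had several adjoining genes with entries of their own. The rule that assigned peaks to genes is not stated in the labels or the table, and whether side-IV and its listed neighbours share 1 peak was not tested. In all, 3 of 5 listed members had a listed neighbour, beside 76.2% of all listed protein-coding genes and 60.7% of those in the longest length decile, where 4 of the 5 lie.

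Over all 54 members, 6 had a listed neighbour within 10 kb (11.1%), beside 26.0% of all protein-coding genes. The 49 unlisted members mostly lay far from listed genes. Of these, 3 had such a neighbour (6.12%, exact 95% interval 1.28 to 16.9). The background was 21.8% for all unlisted protein-coding genes, with the 49 counted in it, and 18.9% for unlisted genes of the longest decile. Only 39 of the 49 lie in that decile, and 2 of these 39 had such a neighbour (5.13%). The 3 among all 49 were dpr16, DIP-alpha and DIP-iota. The unlisted members had a median of 4 genes within the window and both background groups a median of 6, so fewer neighbours were available. Counted over neighbours, 3 of 225 genes beside unlisted members were listed (1.33%), beside 4.45% for unlisted genes of the longest decile, with a gene counted again for each member it adjoins.

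Neighbours were also counted in gene order, as the 5 genes on either side of each member at any distance, with a similar picture. A listed gene stood among these 10 flanking genes for 2 of the 49 unlisted members (4.08%), dpr16 and DIP-iota. The background was 31.2% of unlisted protein-coding genes and 28.5% of those in the longest decile. Among the 39 unlisted members of that decile, 1 had a listed flanking gene (2.56%). This way of counting was added after the other values were seen. Whether the spacing of genes bears on these shares was not tested.

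**Figure D3:**
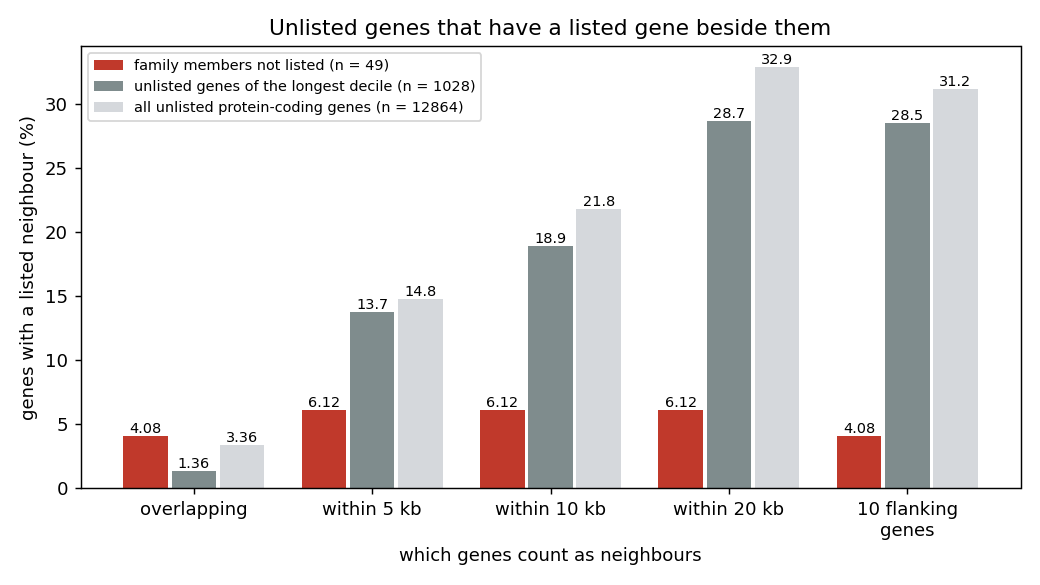
Percent of unlisted genes that have a listed gene beside them, for 5 definitions of a neighbour, in the 49 unlisted family members (red), unlisted genes of the longest length decile (dark grey) and all unlisted protein-coding genes (light grey). The red bars are lower than both grey bars within 5, 10 and 20 kb and for flanking genes, but not for overlapping genes, where 2 of 49 members (4.08%) had one.

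Among the unlisted members, dpr16 was the exception in its surroundings. It overlaps the listed gene cno (FBgn0259212), which encodes an adaptor protein of cell junctions, and 5 of its 10 flanking genes were listed. Besides cno these were corto, CG43131, lncRNA:CR45588 and snRNA:U4atac. Of all genes flanking unlisted protein-coding genes 6.31% were listed, and 5.21% for unlisted genes of the longest decile. DIP-alpha overlaps the listed lncRNA:CR44999 (FBgn0266350), which at 149629 bp is longer than DIP-alpha itself. DIP-iota lies 3437 bp from Oatp26F (FBgn0051634), a gene of the organic anion transporter family.

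The median distance from an unlisted member to the nearest listed gene was 106776 bp. It was 41633 bp for all unlisted protein-coding genes and 47468 bp for those of the longest decile. Of the 49 unlisted members, 28 (57.1%) lay more than 100 kb from any listed gene. This compares with 24.8% of all unlisted protein-coding genes and 28.9% of unlisted genes in the longest decile. Among the 39 unlisted members of that decile, 24 (61.5%) lay so far. In the beat family 12 of 14 genes lay more than 100 kb away, and none of the 71 neighbours counted around beat genes was listed. The closest approach in that family was beat-IIa, which lay 29079 bp from the listed gene Sur-8. The 3 beat-V genes all had sim as their nearest listed gene, at 122941 bp from beat-Vb, 209335 bp from beat-Va and 274538 bp from beat-Vc. The farthest members were DIP-lambda and dpr21 on arm 2R, with ap as the nearest listed gene at 5000353 bp and 2515190 bp.

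**Figure D4:**
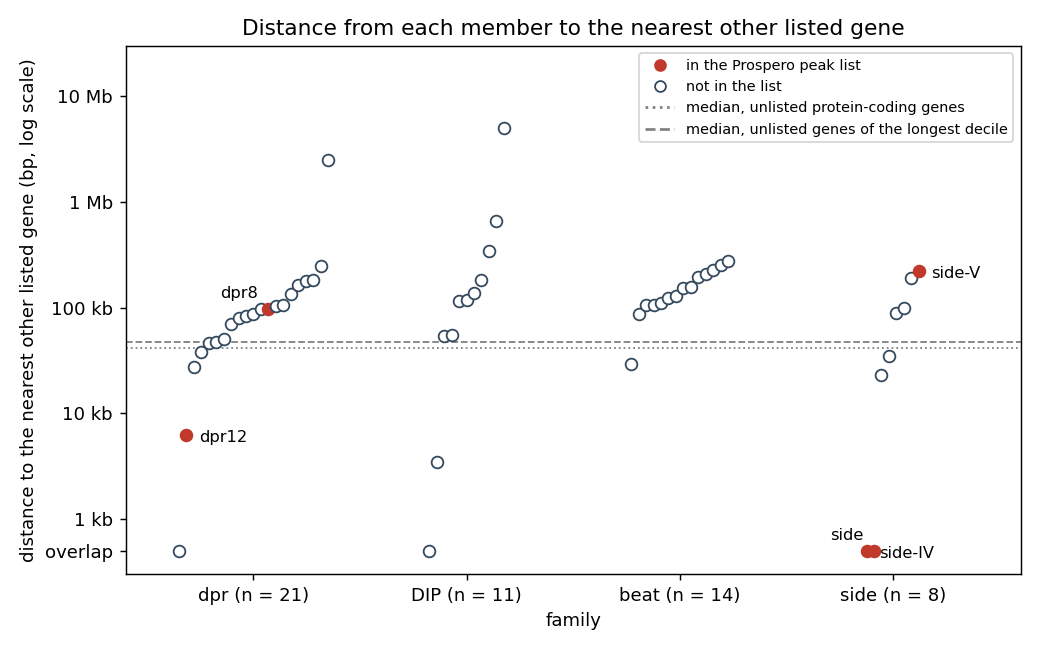
Distance from each of the 54 members to the nearest other gene in the Prospero peak list, on a log axis, by family, with listed members filled and overlapping genes drawn at the lowest level. Lines mark the medians of unlisted protein-coding genes (41633 bp) and of unlisted genes of the longest decile (47468 bp), and all beat genes but beat-IIa lie above both.

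Known binding partners were compared by whether each side of the pair was listed. In 10 pairs that are well established for these proteins, no pair had both genes listed, 4 pairs had 1 and 6 pairs had none. The gene dpr12 was listed and its partner gene DIP-delta was not. The gene side was listed and beat-Ia was not. Likewise side-IV was listed while beat-IIa and beat-IIb were not. The pairs of dpr6 and dpr10 with DIP-alpha, of dpr11 with DIP-gamma, and of side-VI with the 3 beat-V genes had no listed gene. The pairs share genes, so they are not separate observations. They did not include the listed genes dpr8 and side-V. Every pair sets a dpr or side gene against a DIP or beat gene, and no DIP or beat gene was listed. No pair could therefore have both genes listed, and nothing is read from the absence of such pairs. Few would be found in any case at a background of 7.76% of genes listed, or 26.3% in the longest decile.

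Several unlisted members lie beside relatives. Members of the same family lay within 10 kb of each other for dpr6 and dpr10, DIP-eta and DIP-theta, and beat-Ia and beat-Ic. By chromosome, none of the 16 members on arm 2L and none of the 4 on arm 3L was listed. On arm 3R 2 of 21 were listed, on arm 2R 2 of 7, on the X 1 of 5, and dpr7, the single member on chromosome 4, was not. The share of all protein-coding genes listed was 6.29% on 2L, 9.09% on 3L, 7.59% on 3R, 8.28% on 2R, 7.46% on X and 10% on chromosome 4. Transcript number did not separate the groups, with a median of 2 annotated transcripts for listed and for unlisted members.

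Other genes of the same surface protein system were looked up for context, from a list of 9. Of these, 6 were listed, beside 7.76% of all protein-coding genes and 26.3% of the longest length decile. The list was chosen with earlier results of these data known, so its count is not read as a result about this system. Among the immunoglobulin relatives of the Dprs and DIPs, Ama (FBgn0000071), Lac (FBgn0010238) and klg (FBgn0017590) were listed and wrapper was not. The leucine-rich repeat gene cDIP, whose protein binds many Dprs and DIPs, was not. Of the adhesion genes studied with beat and side in motor axon bundles, Fas2 (FBgn0000635), Con (FBgn0005775) and Fas3 (FBgn0000636) were listed and Nrg was not. In this context list 5 of 9 genes fell in the longest length decile.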

How the data were processed

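Genomic DNA was digested with DpnI and, after adaptor ligation, with DpnII, then amplified by PCR, per the labels' protocols. Each fusion was profiled against Dam alone and averaged, per the labels. For the list, the aligner, peak caller, threshold, gene assignment rule and build are not stated in the labels or the file header. The authors' deposited table has 3 text columns and 1584 entries, of which 1512 carry gene identifiers. Entries were paired with RefSeq genes (Release 6 plus ISO1 MT assembly) through the current symbol (1457 entries) or an older name (50 entries). Together 1507 entries gave 1504 genes, 1082 of them protein-coding, and 5 entries were unmatched. Gene length, arms and neighbours come from that RefSeq table. No coordinates are printed.

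Listing was counted per gene, with 10 equal strata of length and exact Clopper-Pearson 95% intervals, which cover counting error only and treat genes as independent. A count of 0 is given the upper limit of 3 counts. No test was run, because there are no values per replicate. The members, lists and partner pairs were chosen with earlier results of these data known. The rule for named genes took all members, with the 2 unlisted relatives closest in length (on a log scale) to each listed one, listed genes that overlap a member or are its nearest listed gene, the partners and the context list. Marker genes were named as a further fixed list, and the other listed genes near side, side-IV and dpr16 were named after they were seen. Name matching, strata and neighbour search were checked on made-up annotations with known answers. Python 3.11.15, pandas 2.3.3, scipy 1.17.1, numpy 2.4.6 and matplotlib 3.10.9 were used.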

Additional observations from a re-analysis of the deposited data

How the results depend on the processing

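The shares of listed genes, over all members and in each family, stayed within the exact 95% interval of the reported value in every alternative run. These were the symbol column alone, gene entries alone, 1 member per run of relatives within 10 kb, each chromosome arm left out, and, added after the data were seen, the gene name column alone. With that last setting the share nonetheless fell from 37.5% to 12.5% (1 of 8) in the side family and from 9.26% to 5.56% over all members, since side-IV and side-V stand there under older names. The dpr share fell from 9.52% to 5.88% without arm 2R and to 5.56% without X, each of which carries 1 of its 2 listed genes. The counts of members with a listed neighbour stayed within their intervals within 5 kb, within 20 kb, for overlaps only, for protein-coding neighbours and for flanking genes, although overlaps, protein-coding neighbours and flanking genes each gave 2 of the 49 unlisted members (4.08%) in place of 3. In all, 52 of 55 alternative values stayed within such an interval. The DIP and beat shares among them were 0 throughout and could not have changed, since these settings only leave out entries or genes. The background share moved from 7.76% to 8.45% with all annotated genes, to 22.7% when weighted to the members' 10 length strata and to 24.7% with 50 strata, because the members are long. The intervals are wide, so this says little about stability. Counts of GATC sites in promoters and identities between proteins were not run. No paired analysis was possible because the table has no replicate values.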
